A study of Mus musculus with 6 samples.

Results

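The receptors of IL-1, IL-18 and IL-33 were examined as 6 genes of the deposited count table, chosen by symbol: Il1r1, Il1r2, Il1rl1, Il1rap, Il18r1 and Il18rap. All 6 were among the 15319 genes listed, and all 6 had counts in every library. The RNA was from tumor-infiltrating Tregs of the mouse lung on day 21 after injection of LLC cells, a mouse lung carcinoma line, into the tail vein of mice 8 to 10 weeks old. WT mice carried Foxp3 Yfp-Cre, in which Cre is made under control of the Treg gene Foxp3, and cKO mice carried Xrcc6 flox/flox together with Foxp3 Yfp-Cre, so that both groups had the Cre allele and Xrcc6, the gene of Ku70, was deleted in cells that make FOXP3. RNA-Seq gave 3 WT and 3 cKO libraries, and since no source used here states how many animals went into a library, p-values measure the spread between these libraries. The study's methods give a CD4+CD25+YFP+ gate for Tregs of spleen and lymph nodes, and the gate for the tumor Tregs is not given in the sources used here.

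Each of these receptors pairs a chain that binds the ligand with an accessory chain, and the TIR domains inside the cell then recruit MYD88 and IRAK kinases, which activate NF-κB and MAP kinases. IL1R1 binds IL-1α and IL-1β, IL1RL1 (also called ST2) binds IL-33, and both use IL1RAP as the accessory chain, whereas IL18R1 binds IL-18 and uses IL18RAP. IL1R2 binds IL-1 but has no TIR domain, so that it acts as a decoy. ST2 is known as a marker of tissue Tregs that respond to IL-33, and IL1R2 as a marker of activated Tregs in tumors.

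The measure was the expected count per gene, scaled to CPM (counts per 1000000 counts of the library total, after scaling by edgeR's TMM method). Total counts were 19032620 to 21707706 in the WT libraries and 20762042 to 23159815 in the cKO libraries, so that 3 counts, the limit that a count of 0 allows, were worth 0.133 to 0.156 CPM. WT replicate 2 stood apart: it listed 11513 genes with a count, against 14442 to 14737 in the others, and it was the highest or lowest library for 79.4% of the 11568 genes with a mean of at least 1 CPM. It was the highest or lowest library for 5 of the 6 receptor genes, Il1r2 being the exception, and the fold change of each receptor gene is therefore also given without it. Xrcc6, the targeted gene, was at 20.9, 63.1 and 23.8 CPM in WT replicates 1 to 3, against 5.24, 3.51 and 4.18 CPM in cKO, with no overlap of the groups. Its log2 fold change was -3.06 ± 0.48 (SE, edgeR adjusted p = 0.984, DESeq2 adjusted p = 1.22e-05), and -2.38 without WT replicate 2 (edgeR adjusted p = 0.0196). Of 7 Treg markers, 3 had a higher and 4 a lower estimate in cKO, with a median log2 fold change of -0.13, and Foxp3 was at 150 to 241 CPM in the WT libraries and 189 to 282 CPM in the cKO libraries.

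All of these genes but Il1rap lie in a cluster. On chromosome 1 of GRCm38 (GENCODE vM21), on the plus strand, Il1r2 spans 40074079 to 40125231, Il1r1 40225080 to 40317257, Il1rl1 40429570 to 40465415, Il18r1 40465552 to 40500854 and Il18rap 40515362 to 40551705. The 5 genes lie within 477.6 kb, and Il18r1 begins 136 bases after Il1rl1 ends. Il1rap is on chromosome 16, from 26581704 to 26730117, also on the plus strand. Antisense genes overlap the spans of Il1r2 (Gm16894) and Il1rap (Gm20319), and no source used here says that the counts use strand. Genes on the same strand overlap the spans of Il1r2 (Gm37347) and Il1r1 (Gm38070). Reads from any stretch of exon that such a pair shares could not be told apart. Overlap was taken over whole gene spans, and how much exon is shared was not measured.

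Promoters are shown for the accessory chain gene with the smallest p-value, Il18rap, and for the distal start of Il1rl1. RefSeq gives Il1rl1 starts at 40429570 and 40439629, 10059 bases apart, and a count per gene cannot separate transcripts of the distal from those of the proximal start, or the membrane-bound from the soluble form of ST2. The sequences are the 250 bases before the start, 5′ to 3′ on the plus strand, from RefSeq on GRCm38.p6, and lie at chr1:40429320-40429569 and chr1:40515112-40515361. Capitals mark the match of a motif letter string on either strand.
Il1rl1 distal: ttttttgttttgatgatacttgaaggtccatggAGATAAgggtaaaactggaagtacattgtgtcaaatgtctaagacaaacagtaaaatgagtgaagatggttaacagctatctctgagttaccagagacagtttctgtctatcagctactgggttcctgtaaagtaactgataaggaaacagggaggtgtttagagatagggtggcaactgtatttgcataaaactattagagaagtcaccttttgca
Il18rap: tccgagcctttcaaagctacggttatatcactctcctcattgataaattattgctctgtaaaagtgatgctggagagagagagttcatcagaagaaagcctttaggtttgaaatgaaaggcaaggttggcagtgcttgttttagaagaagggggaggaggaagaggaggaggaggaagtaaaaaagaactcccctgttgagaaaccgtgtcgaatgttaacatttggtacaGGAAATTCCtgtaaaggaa
The match in the Il1rl1 window is AGATAA, the core of a GATA site, on the plus strand at position -217 from the start, and 9.99% of 32851 RefSeq promoters of this length hold this string. The match in the Il18rap window is the κB string GGNNTTTCC on the minus strand at position -19 from the start, which 4.93% of the promoters hold. AP-1 (TGANTCA, 6.75% of promoters), forkhead (TGTTTAC, 3.17%) and RUNX (TGTGGTT, 4.40%) strings were also searched for and are not in these letters. The 250 bases before the proximal Il1rl1 start, which overlap an exon of the gene and are not printed, hold the forkhead string at position -117 and the GATA string at position -103, both on the minus strand. The windows before the RefSeq starts of Il1r1, Il1r2, Il18r1 and Il1rap were also searched and held none of these strings. A match is a description of the letters, and binding was not measured here.

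To order the receptors by level, CPM were divided by the length of the gene's exons in kb. Il1r2 was far above the others, with a mean of 139 CPM per kb over the 6 libraries (range 73.3 to 227), and it was the highest of the 6 genes in every library. Il18r1 (mean 16.5, range 10.5 to 20.1 CPM per kb), Il1rl1 (mean 14.9, range 10.4 to 22.3) and Il18rap (mean 9.94, range 6.41 to 14.7) followed, and their ranges overlapped. Il1rap had a mean of 0.580 CPM per kb (range 0.0455 to 0.803) and Il1r1 of 0.250 CPM per kb (range 0.165 to 0.487), and these ranges overlapped too. Thus the decoy for IL-1 was the most abundant of these transcripts and the signaling receptor for IL-1 was the least abundant in 5 of the 6 libraries. In WT replicate 2 the order at the bottom was turned, with Il1rap below Il1r1.

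**Figure D1:**
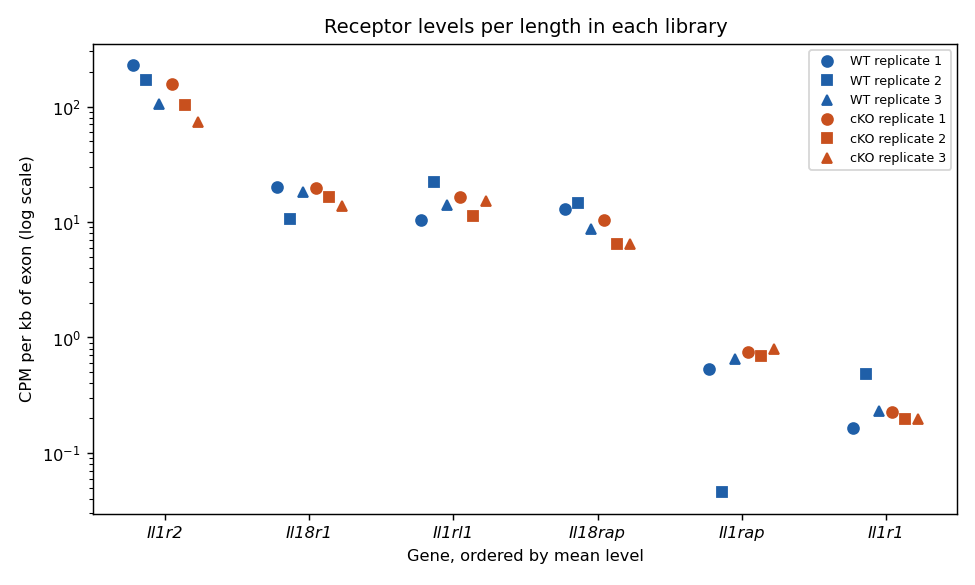
Level of each receptor gene in each library, in CPM per kb of exon on a log scale, with WT libraries in blue, cKO libraries in orange and a marker shape per replicate number. Il1r2 lies above all other genes in every library, and Il1rap in WT replicate 2 is the lowest point at 0.0455 CPM per kb.

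The question of the comparison is how loss of Ku70 in Tregs changes these transcripts. No receptor gene passed an adjusted p of 0.05 with edgeR's quasi-likelihood test over all libraries, where 0 of 15315 genes (0.0%) did, and none passed with DESeq2, where 2 genes did. At an unadjusted p under 0.05, edgeR and DESeq2 each gave 1 receptor gene, Il18rap, lower in the cKO group. Beside it, edgeR gave 0.868% of all genes lower and 0.94% higher, and DESeq2 gave 307 of 15315 genes in either direction. Without WT replicate 2 no receptor gene passed, at an adjusted p (0.00654% of 15302 genes, which is Xrcc6 alone) or at an unadjusted p (3.01% of genes). The values of the 6 genes follow by their roles, and values listed by library are in the order of replicates 1, 2 and 3 of the group. Since these are bulk libraries, fewer cells that express a gene and less RNA per cell cannot be told apart.

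**Figure D2:**
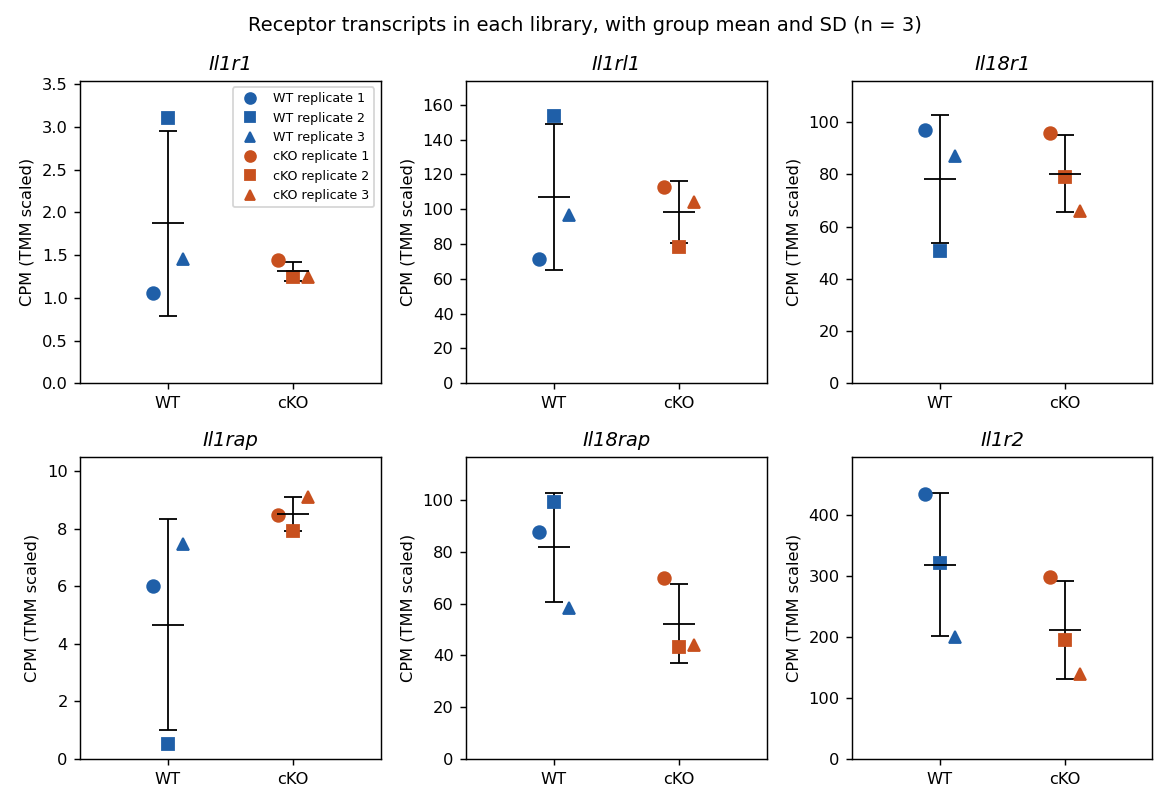
CPM of the 6 receptor genes in each library, with the group mean as a bar and the SD as whiskers (n = 3 per group, vertical axes from 0). WT replicate 2 (blue square) is the highest WT library for Il1r1, Il1rl1 and Il18rap and the lowest for Il18r1 and Il1rap, and the groups overlap for every gene but Il1rap.

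Il1r1, the signaling receptor for IL-1, had the fewest reads of the 6 genes on average. It was at 1.05, 3.10 and 1.46 CPM in WT, against 1.44, 1.25 and 1.25 CPM in cKO, which are 22, 66 and 28 counts against 31, 26 and 28 counts. The 3 cKO libraries lay between WT replicate 1 and WT replicate 3, and WT replicate 2 was above all others. The means were 1.87 ± 1.09 CPM in WT and 1.31 ± 0.110 CPM in cKO (SD, n = 3), a log2 fold change of -0.51 ± 0.69 (SE, edgeR adjusted p = 0.984, 95% interval -2.13 to 1.11). Without WT replicate 2 it was 0.062 ± 0.43, with a 95% interval from -0.91 to 1.03. The cKO replicates varied by 8.42% (CV), which is less than the counting error of 12.3% to 21.3% of a library.

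Il1rl1, which encodes ST2, was well expressed in both groups. It had 71.5, 153 and 96.9 CPM in WT, against 113, 78.4 and 104 CPM in cKO. The cKO libraries all fell within the range of the WT libraries, whose highest was WT replicate 2. The means were 107 ± 42.0 and 98.5 ± 17.9 CPM (SD, n = 3), and the log2 fold change was -0.12 ± 0.29 (SE, edgeR adjusted p = 0.984, 95% interval -0.80 to 0.55). Without WT replicate 2 the sign turned, to 0.22 ± 0.19 (edgeR adjusted p = 0.997, 95% interval -0.21 to 0.66).

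Il18r1, the chain that binds IL-18, was at 97.0, 50.7 and 87.0 CPM in WT, against 95.7, 79.1 and 66.0 CPM in cKO. The WT and cKO libraries were interleaved, with WT replicate 2 the lowest of all, opposite to Il1rl1 next to it on the chromosome. The means were 78.2 ± 24.4 and 80.3 ± 14.9 CPM (SD, n = 3), and the log2 fold change was 0.037 ± 0.26 (SE, edgeR adjusted p = 0.996, 95% interval -0.58 to 0.65), and -0.20 ± 0.17 without WT replicate 2 (95% interval -0.57 to 0.18).

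Il1rap, the accessory chain shared by the IL-1 and IL-33 receptors, was the receptor gene whose groups did not overlap in CPM, as was so for 8.24% of all genes. It was at 6.02, 0.517 and 7.45 CPM in WT, against 8.49, 7.93 and 9.12 CPM in cKO. The lowest cKO library was just above the highest WT library, and WT replicate 2 had only 11 counts (exact Poisson interval 0.258 to 0.925 CPM, which covers counting error only). The same intervals of WT replicate 3 (143 counts, 6.28 to 8.78 CPM) and cKO replicate 2 (165 counts, 6.76 to 9.23 CPM) overlapped. The means were 4.66 ± 3.66 CPM in WT and 8.51 ± 0.596 CPM in cKO (SD, n = 3). The log2 fold change was 0.87 ± 0.82 (SE, edgeR adjusted p = 0.984, 95% interval -1.04 to 2.78) and 0.34 ± 0.21 without WT replicate 2 (edgeR adjusted p = 0.997, 95% interval -0.15 to 0.82). The exact two-sided permutation test of the CPM gave p = 0.1, the smallest p that 3 libraries against 3 allow.

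Il18rap, the accessory chain of the IL-18 receptor, was lower in the cKO group on average. It was at 87.8, 99.4 and 58.5 CPM in WT, against 69.8, 43.3 and 43.9 CPM in cKO. The groups overlapped in that cKO replicate 1 was above WT replicate 3, while both other cKO libraries were below every WT library. The means were 81.9 ± 21.1 CPM in WT and 52.4 ± 15.1 CPM in cKO (SD, n = 3), and edgeR's estimate was 1.56-fold higher in WT. The log2 fold change was -0.65 ± 0.27 (SE, 95% interval -1.27 to -0.023), with an edgeR p of 0.0440 before and 0.984 after adjustment and a DESeq2 p of 0.0377 before adjustment. Without WT replicate 2 it was -0.49 ± 0.24, with an edgeR p of 0.0716 (95% interval -1.03 to 0.053), and the unadjusted p was also above 0.05 without WT replicate 1 and without cKO replicate 2 or 3. The exact two-sided permutation test of the CPM gave p = 0.2.

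Il1r2, the decoy receptor, was the most abundant of the receptor transcripts and differed among libraries within each group. It was at 434, 322 and 201 CPM in WT, against 299, 195 and 140 CPM in cKO. WT replicates 1 and 2 were the highest libraries, but WT replicate 3 was below cKO replicate 1, so that the groups overlapped. The means were 319 ± 117 CPM in WT and 211 ± 80.6 CPM in cKO (SD, n = 3), a 1.51-fold higher estimate in WT. The log2 fold change was -0.59 ± 0.35 (SE, edgeR adjusted p = 0.984, 95% interval -1.42 to 0.23), and it was -0.59 ± 0.36 without WT replicate 2 (edgeR adjusted p = 0.997). Without WT replicate 1 it was -0.31 (edgeR adjusted p = 0.763), without WT replicate 3 it was -0.84 and without cKO replicate 1 it was -0.93. The latter fits had an unadjusted p of 0.0467 and 0.0399 and an adjusted p of 0.851 and 0.996 with edgeR. In them, 575 of 15302 and 184 of 15308 genes had an unadjusted p under 0.05. Without cKO replicate 2 or 3 the log2 fold change was -0.54 and -0.37, with an unadjusted edgeR p of 0.257 and 0.352.

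**Figure D3:**
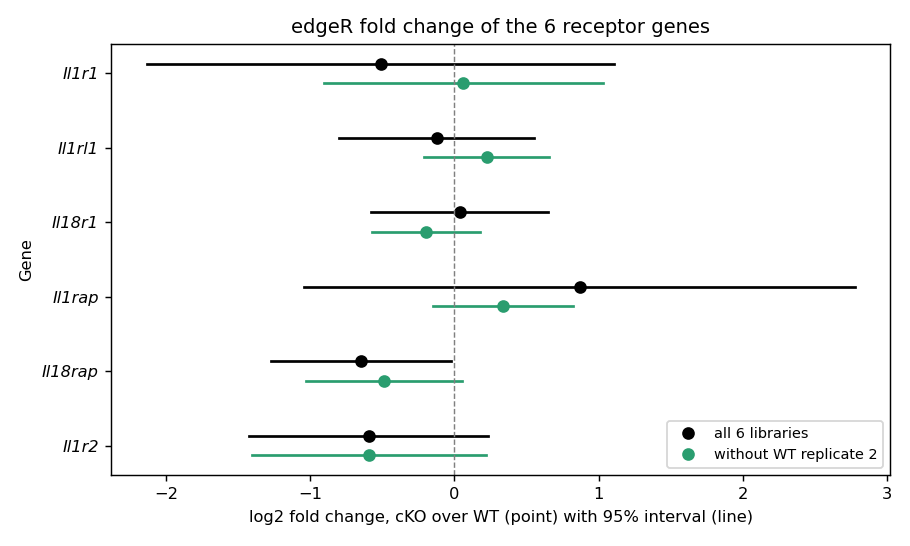
Log2 fold change of cKO over WT for the 6 receptor genes from edgeR, as a point with its 95% interval, with all libraries (black) and without WT replicate 2 (green). Every interval includes 0 but that of Il18rap with all libraries, which ends at -0.023.

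Of the 6 genes, 4 had a lower estimate in cKO and 2 a higher one, with a median log2 fold change of -0.32, beside 0.044 over all genes. Without WT replicate 2 it was 3 and 3, with a median of -0.069 beside -0.0089 over all genes. The signs of Il1rap, Il18rap and Il1r2 were the same with and without this library and those of Il1r1, Il1rl1 and Il18r1 were not.

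Because a receptor needs both of its chains, the ratio of the chains per kb of exon was taken in each library. For IL-18, Il18r1 over Il18rap was 1.55, 0.715 and 2.08 in the WT group, against 1.92, 2.56 and 2.11 in the cKO group. The cKO ratios were above those of WT replicates 1 and 2, and WT replicate 3 lay between them (exact two-sided permutation test of the log2 ratio, p = 0.2). For IL-33, Il1rl1 over Il1rap had values of 19.6 (WT replicate 1) and 21.4 (WT replicate 3), against 21.9, 16.3 and 18.9 for cKO, so that this ratio of RNA was similar in these 5 libraries. Its size is not a ratio of receptor chains. The exon lengths cover all annotated transcripts, and the Il1rl1 count cannot separate membrane-bound from soluble ST2. In WT replicate 2 this ratio was 489. Decoy over signaling receptor, Il1r2 over Il1r1, was 1376, 346 and 459 in the WT group, against 693, 521 and 375 in the cKO group, an overlap of the groups with 22 to 66 counts of Il1r1 behind each value.

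The profiles over the 6 libraries were compared as log2(CPM + 0.5), each centered on its own mean, by the root mean square (RMS) difference, as a description. Il1r2 and Il18rap were close to each other, with an RMS difference of 0.248. By this measure Il18rap ranked 19th of 8446 genes nearest to Il1r2, and Il1r2 ranked 103rd nearest to Il18rap. Their ratio per kb of exon was 17.5, 11.5 and 12.1 in the WT group, against 15.1, 15.9 and 11.3 in the cKO group, a narrower range, as highest over lowest value, than that of either gene. Il1r1 and Il1rl1, both highest in WT replicate 2, had an RMS difference of 0.185, with Il1rl1 ranking only 712th nearest to Il1r1 and Il1r1 364th nearest to Il1rl1. Among genes with a mean of at least 10 CPM the nearest profile was that of Spata5l1 for Il1r1 (RMS difference 0.0377), Herc3 for Il1rl1 (0.0612), Ankrd52 for Il18r1 (0.0454), Slc8b1 for Il1rap (0.116), Ubxn11 for Il18rap (0.0812) and Gpr160 for Il1r2 (0.174).

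**Figure D4:**
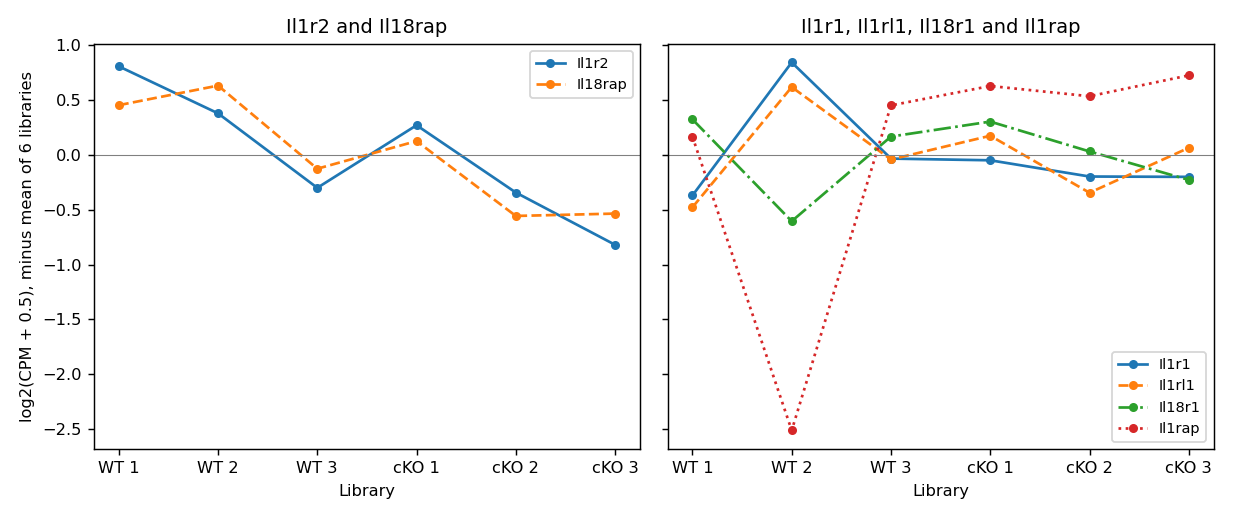
Profiles of the receptor genes over the 6 libraries as log2(CPM + 0.5) minus the gene's own mean, with Il1r2 and Il18rap on the left and the other 4 genes on the right, on the same vertical axis; lines join libraries for reading only. Il1r2 and Il18rap have their highest values in WT replicates 1 and 2 and their lowest in cKO replicates 2 and 3, while Il1rap drops in WT replicate 2.

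Myeloid and other lymphoid cells also make these receptors, so markers of those cells, which a CD4+CD25+YFP+ gate would remove, were set beside them. The summed level of 7 macrophage and dendritic cell markers, which is mainly Lyz2, was 157, 652 and 611 CPM in WT, against 206, 426 and 826 CPM in cKO. It was lowest in WT replicate 1 and cKO replicate 1, the libraries in which Il1r2 was highest within the group, and highest in cKO replicate 3, in which Il1r2 was lowest. WT replicate 2 did not follow this order. It had the highest sum of the WT libraries but more Il1r2 (322 CPM) than WT replicate 3 (201 CPM). Il18r1 also fell as the sum rose within each group, WT replicate 2 included. It was at 97.0, 50.7 and 87.0 CPM in WT, against 95.7, 79.1 and 66.0 CPM in cKO. No other receptor gene followed this order in both groups. Whether macrophages and dendritic cells have a part in the Il1r2 or Il18r1 values was not tested. The neutrophil marker sum (9 of 10 genes with counts) was 11.5 to 20.5 CPM in WT and 16.0 to 19.9 CPM in cKO. Of these 9 genes, 7 had a higher and 2 a lower estimate in cKO. The most abundant, Cxcr2, was among the lower (log2 fold change -0.58). An unadjusted edgeR p under 0.05 was reached by 3, all higher in cKO, beside 0.94% of all genes higher. S100a9 had 2, 0 and 4 counts in WT, against 24, 28 and 43 in cKO, while Retnlg (19, 13 and 34 counts in cKO) and Ngp (8, 8 and 7 counts in cKO) were at 0 counts in every WT library. The summed CD8 T and NK cell markers (7 of 8 genes with counts) were 8.32 to 30.0 CPM in WT and 30.3 to 32.4 CPM in cKO. These sums did not overlap but nearly met, and the lowest was WT replicate 2. Cd8b1, the most abundant of these genes, did overlap, at 18.5, 5.22 and 12.5 CPM in WT, against 17.3, 17.6 and 17.9 CPM in cKO. The part of these cells in the receptor values was not tested. Mast cell and basophil markers (5 of 8 genes with counts) summed to 3.57 to 12.9 CPM in WT and 6.58 to 10.2 CPM in cKO, with Cpa3, Mcpt8 and Ms4a2 at no more than 3 counts in every library. The ILC2 markers summed to 40.0 to 97.8 CPM in WT and 37.7 to 53.1 CPM in cKO, the highest being WT replicate 2, in which Il9r was at 66.7 CPM and Il5 and Il13 were at 0 counts. WT replicate 2 was also the highest library for Il1rl1, and whether this has a part in its value was not tested. The stromal and endothelial markers summed to 61.6 to 82.4 CPM in WT and 70.9 to 96.8 CPM in cKO, nearly all of it Pecam1.

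Most genes around the chromosome 1 cluster were low. Within 500000 bases of it, 6 further genes were in the table. Map4k4, a kinase gene on the Il1r2 side, was at 53.6, 113 and 84.8 CPM in WT, against 67.2, 64.2 and 72.4 CPM in cKO, with a log2 fold change of -0.30 (edgeR adjusted p = 0.984) and of -0.027 without WT replicate 2. Il1rl2, the IL-36 receptor, which lies between Il1r1 and Il1rl1, was at 1.39, 0 and 2.08 CPM in WT, against 0.882, 1.54 and 1.60 CPM in cKO. Slc9a4, which begins 28375 bases after Il18rap ends, had 0 counts in every WT library and 5, 2 and 10 counts in cKO replicates 1, 2 and 3, of which 2 is under the limit of 3 counts, so that no fold is given (edgeR adjusted p = 0.984). Its unadjusted p was 0.0165 with edgeR, where 0.94% of all genes were higher at a p under 0.05, and 0.0738 with DESeq2. Without WT replicate 2 the unadjusted edgeR p was 0.0182, where 3.01% of genes were under 0.05. Creg2 and Mfsd9 were at no more than 1.53 CPM and Slc9a2 was at 0 counts in 5 of the 6 libraries.

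The rest of the pathway was described by lists of 65 genes, 58 of them with counts. None of the 58 passed an adjusted p of 0.05 with edgeR or DESeq2, with or without WT replicate 2, and none had an unadjusted p under 0.05 in these 4 fits. The estimates were lower in the cKO group for 33 and higher for 25, with a median log2 fold change of -0.031, and -0.068 without WT replicate 2. The groups did not overlap for 5 of the 58 (8.62%, beside 8.24% of all genes): Tollip, Traf6 and Peli3 were higher and Il18bp and Casp1 lower in every cKO library, with Peli3 at no more than 0.578 CPM, and these 5 were chosen after their values were seen.

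Of the ligands and soluble antagonists, 5 of 11 had counts, 3 higher and 2 lower, with a median log2 fold change of 0.087. The median was 0.40 without WT replicate 2, -0.25 without WT replicate 1 and -0.028 without cKO replicate 3. Il33 and the IL-36 genes are not analysed here. Il1b encodes IL-1β, a ligand of IL1R1 and IL1R2. It was at 10.9, 6.11 and 23.6 CPM in WT, against 19.9, 32.0 and 23.3 CPM in cKO. Its log2 fold change was 0.89 ± 0.48 (SE, edgeR adjusted p = 0.984), and 0.54 without WT replicate 2. WT replicate 3 lay within the cKO range and both other WT libraries below it. Il1rn, the IL-1 receptor antagonist, had a log2 fold change of 0.087 (edgeR adjusted p = 0.992), and Il18bp, which neutralizes IL-18, of -0.32 (edgeR adjusted p = 0.984). They were 0.40 and -0.15 without WT replicate 2.

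Of the other receptors of the family, Sigirr, an inhibitory receptor, was the only abundant gene, at 117, 105 and 107 CPM in WT, against 104, 107 and 108 CPM in cKO. The log2 fold change was -0.047 ± 0.12 (SE, edgeR adjusted p = 0.984), and the groups overlapped. All 19 adaptors and kinases had counts, 9 higher and 10 lower, with a median log2 fold change of -0.0078 (0.072 without WT replicate 2). The 3 most abundant were Peli1, a ubiquitin ligase of this pathway, with a log2 fold change of -0.0078, Ube2n, the enzyme that makes K63-linked ubiquitin chains, with 0.035, and Ikbkb, the kinase of IκB, with 0.13. With WT replicate 2 left out these were 0.0096, -0.088 and 0.21, so that the signs of Peli1 and Ube2n turned. The ligand processing genes were 3 higher and 3 lower, with -0.17 for Gsdmd, which forms the pore through which IL-1β leaves a cell, 0.086 for Pycard, the inflammasome adaptor, and -0.092 for Aim2, a sensor of DNA. Of the 6, 5 were lower without WT replicate 2, with -0.092 for Gsdmd, -0.14 for Pycard, whose sign turned, and -0.13 for Aim2.

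Since Il1rl1 marks tissue Tregs, 17 other genes of that state were listed. Of these 13 had a lower and 4 a higher estimate in cKO, and their median log2 fold change was -0.20, beside 49.1% lower and a median of 0.0064 over the 8447 genes with a mean of at least 10 CPM. Without WT replicate 2, all 17 were lower in estimate (median -0.16, beside 50.1% of genes lower), and without WT replicate 1, 9 were lower (median -0.023). WT replicate 1 was the highest of the 6 libraries for more of the 17 genes than any other library, Id2 and Tigit among them. Id2, an inhibitor of E proteins, had a log2 fold change of -0.33 (edgeR adjusted p = 0.984), Tigit, an inhibitory receptor, of 0.080 (edgeR adjusted p = 0.986) and Icos, a costimulatory receptor, of -0.18 (edgeR adjusted p = 0.984). The 3 values were -0.40, -0.15 and -0.063 without WT replicate 2. Among the receptor genes, Il1rl1 and Il1r1 were at their lowest in WT replicate 1, and Il1r2 and Il18r1 were at their highest. IL-18 receptors are also known from Th1 cells, and of 8 genes of Th1-like Tregs 5 had a higher and 3 a lower estimate, with a median log2 fold change of 0.14. The median was 0.57 without WT replicate 1 (6 higher), -0.025 without WT replicate 2 (3 higher), -0.15 without cKO replicate 2 (3 higher) and 0.24 without cKO replicate 3 (7 higher). The 3 most abundant were Ifngr1, the IFN-γ receptor, with 0.10, Cxcr3, a chemokine receptor, with 0.48, and Stat4, which acts below the IL-12 receptor, with 0.23. They were 0.11, 0.16 and 0.087 when WT replicate 2 was left out.

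**Figure D5:**
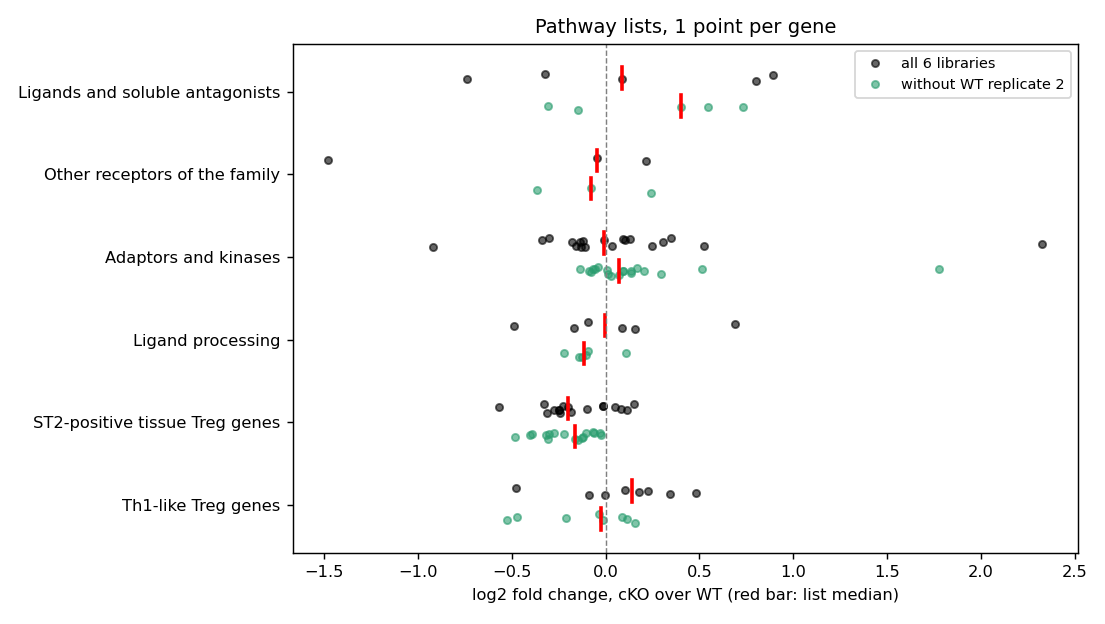
Log2 fold change of cKO over WT from edgeR for the genes of each pathway list, 1 point per gene, with all libraries (black) and without WT replicate 2 (green), and the list median as a red bar. The genes of the ST2-positive tissue Treg list lie mostly left of 0, and no point passed an unadjusted p of 0.05.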

How the data were processed

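Tumor-infiltrating Tregs were measured by bulk RNA-Seq in 3 WT and 3 cKO libraries. The deposited values are expected counts of each gene symbol, which the authors had not normalized. The submitters' processing notes name Bowtie2 (version 2.3.4.3), RSEM (version 1.3.1) and GRCm38, and the annotation is not given in the sources used here. Of the values, 21.6% were not whole numbers, and all were rounded to whole counts. RSEM divides reads shared between genes or transcripts by an estimate. Genes with at least 1 count (15315) were tested with edgeR's quasi-likelihood test (version 4.0.16, R version 4.3.3), TMM scaling and Benjamini-Hochberg adjustment over all genes. Standard errors came from the log2 fold change and its F statistic. Intervals are 95%. Permutation tests were exact and two-sided. Alternatives were DESeq2 (version 1.42.0), limma's voomWithQualityWeights (version 3.58.1), other scalings, filterByExpr, a robust dispersion, a replicate block, and each library left out. The scripts were tested on simulated data. Replicates differed by more than sampling noise. Positions and exon lengths came from GENCODE vM21, which held 14783 of the 15319 symbols (15164 with RefSeq).

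Of each pathway list the text names the 3 most abundant genes and any with an unadjusted p under 0.05 in the fits with and without WT replicate 2, all genes of the table within 500000 bases of the chromosome 1 cluster, and the nearest profile to each receptor gene. The receptor genes and all lists were chosen with earlier results of these data known.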

Additional observations from a re-analysis of the deposited data

How the results depend on the processing

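No receptor gene and no pathway gene passed an adjusted p of 0.05 in any of the fits, and the lowest adjusted p of a receptor gene was 0.677. The signs of Il1rap, Il18rap and Il1r2 were the same in all 14 alternatives. When single libraries were left out, the log2 fold changes were -0.80 to 0.062 for Il1r1, -0.35 to 0.22 for Il1rl1, -0.20 to 0.22 for Il18r1, 0.34 to 1.38 for Il1rap, -0.91 to -0.49 for Il18rap and -0.93 to -0.31 for Il1r2. The sign of Il1rl1 turned without WT replicate 2 or cKO replicate 2 and that of Il18r1 without WT replicate 2 or cKO replicate 1. DESeq2 without WT replicate 2 gave 0.060 for Il1r1, 0.22 for Il1rl1 and -0.20 for Il18r1, and limma's voomWithQualityWeights, which gave WT replicate 2 a weight of 0.0965, gave 0.12 for Il1rl1 and -0.23 for Il18r1. The unadjusted p of Il18rap was under 0.05 in 8 of the 14 alternatives and ranged from 0.0122 to 0.137, and that of Il1r2 was under 0.05 in 3. Over all genes, the alternatives gave from 65 (without cKO replicate 3) to 874 genes (without WT replicate 1) with an unadjusted p under 0.05.

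Same-numbered WT and cKO libraries deviated from their group means with correlations of 0.114, -0.0941 and 0.211. Those of differently numbered libraries ranged from -0.280 to 0.161. The replicate numbers were not taken as pairs, although with 3 libraries per group these correlations cannot exclude pairing. With a replicate block the log2 fold change was 1.41 for Il1rap, -0.65 for Il18rap and -0.59 for Il1r2 (unadjusted edgeR p of 0.0177), no gene passed an adjusted p of 0.05, and 85 genes had an unadjusted p under 0.05, against 277 without it. Depth limits Il1r1 in every library (counting error 12.3% to 21.3%) and Il1rap, most in WT replicate 2 (30.2%) and also in the cKO libraries (6.98% to 7.78%, near the CV of these replicates), and the other 4 genes have counting errors of at most 3.33% in every library, below the spread between replicates.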
